A study of Mus musculus with 40 samples.

Results

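The genes described are 10 that mark T cells and cytotoxic lymphocytes: Cd3d, Cd3e, Cd3g, Cd4, Cd8a, Cd8b1, Gzma, Gzmk, Nkg7 and Cxcr6. Their probes were taken as those whose gene name on the arrays equals 1 of these symbols, which gave 14 of 55681 probes. The 10 genes are part of 36362 names on the arrays. Cd4, Cd8a, Nkg7 and Cxcr6 have a pair of probes each, and the other 6 genes have 1. For a gene with a pair of probes, the probe with the higher mean over all arrays stands for the gene, and the other is called its second probe.

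RNA of the cerebral cortex and of the cerebellum was measured on Agilent 1-colour arrays, 40 in all, which fall into 10 groups of 4. All mice were of the C57Bl/6 background. In each region, wild-type mice were taken at 2 and at 29 months on a normal diet with 36 mg of alpha-tocopherol per kg, and at 29 months also on a diet deficient in it. Ttpa-/- mice were all 29 months old, and ate either the deficient diet or a diet supplemented to 600 mg per kg. Ttpa encodes the alpha-tocopherol transfer protein, which the liver uses to send vitamin E into the circulation. The deletion is of the whole body and not of the brain alone. There was no young Ttpa-/- group, no Ttpa-/- group on the normal diet and no wild-type group on the supplemented diet. The labels give 4 mice for a group but neither the sex nor the litter of a mouse, nor whether the cortex and the cerebellum came from the same mice.

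T cells recognise antigen through a receptor whose signal is carried into the cell by the CD3 chains, encoded by Cd3d, Cd3e and Cd3g. CD4 and CD8 are the coreceptors that divide helper from cytotoxic T cells, and CD8 is built from the products of Cd8a and Cd8b1. Cytotoxic T cells and natural killer cells store granzymes, among them those of Gzma and Gzmk, in granules whose release involves the membrane protein NKG7. CXCR6 is the receptor of the chemokine CXCL16 and marks T cells that settle in tissues. In the healthy brain parenchyma such cells are scarce, and their RNA is a small part of the tissue's RNA.

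Signals are given on the log2 scale after subtraction of the log2 signal at the 75th percentile of the array, called the log2 scaled signal. A probe counted as above background on an array when the scanner software flagged it as well above background. Between 51.4% and 61.4% of all probes were above background on an array. All 10 cerebral cortex markers were higher in the cortex and all 10 cerebellum markers higher in the cerebellum at 29 months. Of the pair of Ttpa probes, 1 was above background on all 4 arrays of each wild-type cerebellum group, and on 0 and 1 of 4 arrays of the Ttpa-/- groups on the deficient and the supplemented diet. The arrays lay on 5 slides of 8, each with 2 whole groups. Both ages of wild-type cortex, both diets of aged wild-type cerebellum, and both Ttpa-/- cerebellum groups shared a slide. For every other pair of groups compared, slide and group cannot be told apart.

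The probes are 60 bases long, and those on which the results below turn are shown 5′ to 3′ with the positions of the files, on mm9. Capitals mark the hexamer AATAAA, which is the common polyadenylation signal near the end of a transcript. It stood in 3 of the 14 member probes (Cd3e, Cd4 and Gzma), and in 10.06% of all probes on the arrays. The Cd3d probe (chr9:44794171-44794402, plus strand) and the Gzmk probe (chr13:113970774-113971087, minus strand) are listed over 232 and 314 bases of the genome, more than their length. The first Cd4 probe lies at chr6:124814711-124814770 and the second at chr6:124817706-124817765, both on the minus strand, so the first is nearer the 3′ end of the gene. The Nkg7 probes lie at chr7:50693530-50693589 and chr7:50693148-50693207 on the plus strand, and the first is again the one nearer the 3′ end.
Cd3d: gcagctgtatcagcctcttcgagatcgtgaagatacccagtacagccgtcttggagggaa
Cd3e: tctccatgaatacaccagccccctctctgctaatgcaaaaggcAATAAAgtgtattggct
Cd4: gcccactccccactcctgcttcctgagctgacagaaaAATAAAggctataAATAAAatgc
Cd4 (second probe): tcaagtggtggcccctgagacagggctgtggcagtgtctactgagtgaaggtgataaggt
Gzma: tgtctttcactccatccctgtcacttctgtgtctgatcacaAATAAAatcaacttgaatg
Gzmk: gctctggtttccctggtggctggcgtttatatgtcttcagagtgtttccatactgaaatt
Nkg7: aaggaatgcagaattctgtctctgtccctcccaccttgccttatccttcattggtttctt
Nkg7 (second probe): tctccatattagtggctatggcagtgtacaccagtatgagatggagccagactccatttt

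The pair of Cxcr6 probes, at chr9:123720719-123720778 and chr9:123720709-123720768 on the plus strand, is shown because it gives a single site measured over again. The capitals mark the 50 bases that both share.
Cxcr6: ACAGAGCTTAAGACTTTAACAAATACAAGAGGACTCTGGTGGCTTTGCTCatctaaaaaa
Cxcr6 (second probe): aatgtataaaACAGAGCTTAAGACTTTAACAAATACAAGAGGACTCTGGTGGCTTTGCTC

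The members fell into 3 kinds by the arrays on which they were above background. The first probes of Cd4 and Nkg7 and the probes of Cd3e and Gzmk were above background on all 40 arrays, and Gzma on 37. The values of the first Cd4 and Nkg7 probes did not follow those of the second probes, as given below, and each result is that of the probe named. Cxcr6 was above background on 20 of 20 cerebellum arrays and 10 of 20 cortex arrays, and its second probe on 16 and 5. Cd3d was above background on 7 arrays, the second Nkg7 probe on 7 and Cd3g on 3, and all of these were arrays of aged cerebellum. The second Cd4 probe was above background on 3 arrays, all of the Ttpa-/- cerebellum on the supplemented diet, and Cd8b1 on 1 array of the Ttpa-/- cerebellum on the deficient diet. Neither Cd8a probe was above background on any of the 40 arrays. Of the 56 values of the 14 probes in a group, between 22 and 23 were above background in the 5 cortex groups, 24 in the young cerebellum, and 31 to 35 in the 4 aged cerebellum groups. The lowest log2 scaled signal that still counted as above background averaged -4.78 in the young and -5.04 in the aged wild-type cerebellum on the normal diet, and -4.70 to -4.31 in the cortex groups. In bulk tissue, fewer cells of a type and less of its RNA per cell cannot be told apart.

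**Figure D1:**
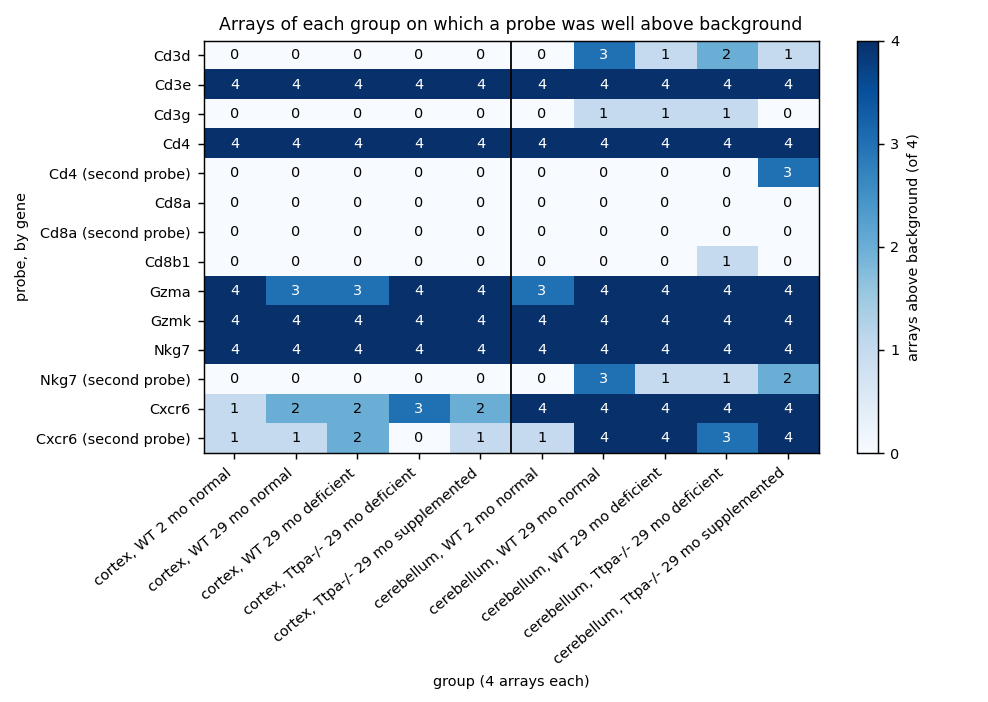
Number of the 4 arrays of each group (columns) on which each of the 14 member probes (rows) was well above background. Cd3d, Cd3g and the second Nkg7 probe are above 0 only in the aged cerebellum groups, and both rows of Cd8a are at 0.

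With age, Cd3d and the second Nkg7 probe passed from no to 3 of 4 arrays above background in the wild-type cerebellum with the normal diet, while Cd3e and the first Nkg7 probe were not called. The young and the aged cerebellum lay on different slides, so slide and age cannot be told apart there. The log2 scaled signals of Cd3d, a chain of the T cell receptor complex, were -6.56, -6.83, -6.90 and -7.00 at 2 months and -3.55, -4.52, -4.18 and -4.83 at 29 months. All 4 aged arrays were above all 4 young ones, and 3 aged arrays and no young array were above background. The difference was 2.55 ± 0.51 (SE, n = 4 and 4), taken against young values below background, and counted against the background of the young arrays the signal was at least 1.42-fold higher. Being above background on 3 arrays and not 4, Cd3d did not enter the adjusted test. With normexp background correction, which adds an offset, the difference was 0.43.

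The second Nkg7 probe gave log2 scaled signals of -6.72, -7.02, -7.07 and -7.21 at 2 months and -3.56, -4.48, -4.21 and -5.77 at 29 months in the cerebellum. The groups did not overlap, 3 aged arrays and no young array were above background, and the signal was at least 1.21-fold higher. The difference was 2.50 ± 0.38 (SE, n = 4 and 4), and 0.52 with normexp. Without aged array 1 the mean of the rest, -4.82, was below the young level of -4.78 that the bound uses, so the bound rests on that array. All 16 aged cerebellum arrays, of any genotype and diet, were above the 4 young ones. The first Nkg7 probe was not called between the same groups, with log2 scaled signals of 0.88 to 1.17 at 29 months and 0.90 to 1.11 at 2 months (n = 4 each).

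Cd3g, which encodes another CD3 chain, had log2 scaled signals of -6.76, -7.00, -7.09 and -7.21 in the young cerebellum and -4.12, -6.02, -5.19 and -5.61 in the aged one. The groups did not overlap, but only 1 aged array was above background, so no fold change is given. Cd3e, the remaining CD3 chain, was not called. Its log2 scaled signal was -0.04 ± 0.32 at 2 months and -0.06 ± 0.17 at 29 months (SD, n = 4 each).

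Gzma, which encodes granzyme A, was the only member that passed the test with age, in the cerebellum and with its groups overlapping. Its log2 scaled signals were -4.86, -4.27, -4.51 and -4.08 at 2 months and -3.18, -3.94, -3.43 and -4.29 at 29 months. The difference was 0.72 ± 0.23 (SE, n = 4 and 4), or 1.65-fold, with an adjusted p of 0.0423 by limma and an exact permutation p of 0.0857. A gene is called here where its fold change exceeds 1.5 and its adjusted p is below 0.05. The call was lost under median scaling, quantile normalization and normexp, where the difference was 0.66, 0.66 and 0.22, with no filter on dim probes (adjusted p by limma 0.0659) and in a fit of the 2 groups alone (adjusted p by limma 0.176). It was also lost without young array 1, 2 or 3 or aged array 1 or 3, where the difference was 0.54 to 0.77. A further probe, which carries no gene symbol, overlaps the listed position of the Gzma probe on the same strand. It was above background on 20 of the 40 arrays, with a mean of -4.44, and followed the Gzma probe only in part (Pearson r = 0.40).

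Cxcr6, the receptor of CXCL16, had log2 scaled signals of -3.76, -3.59, -4.31 and -3.60 in the young cerebellum and -2.70, -2.50, -2.56 and -3.17 in the aged one. The groups did not overlap and all 8 arrays were above background. The difference was 1.08 ± 0.45 (SE, n = 4 and 4), with an adjusted p of 0.128 by limma, and the overlapping second probe gave 0.97 ± 0.40 and an adjusted p of 0.121. That second probe was above background on 4 aged arrays and 1 young array, and passed the filter on dim probes through the aged group alone. Fitted on the 2 groups alone, both probes were called, with adjusted p values of 0.0262 and 0.0233 by limma. In the 16 aged cerebellum arrays, 15 were above all young ones by either probe.

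Across the members, 1 of the 6 genes tested was called with age in the cerebellum, where 5.03% of all probes tested were called either way. Of the 14 member probes, 5 had all aged arrays above all young ones, where 5.94% of all probes on the arrays did. These were Cd3d, Cd3g, the second Nkg7 probe and both Cxcr6 probes, which share 50 bases and measure a single site. Cd3d, Cd3g and the second Nkg7 probe had no young array above background, and the second Cxcr6 probe had 1 of 4. The median change of the 6 members tested was -0.002, and -0.01 over all probes tested. The exact permutation test of 4 against 4 arrays cannot go below 0.0286, the value of each of the 5 probes, and 196 such tests were computed over the 14 comparisons of 2 groups, so that none could pass a correction over them. The Cd8a probe, which no array measured above background, differed by 0.25 between the same groups, with a mean of -6.76 at 2 months and -6.51 at 29 months.

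**Figure D2:**
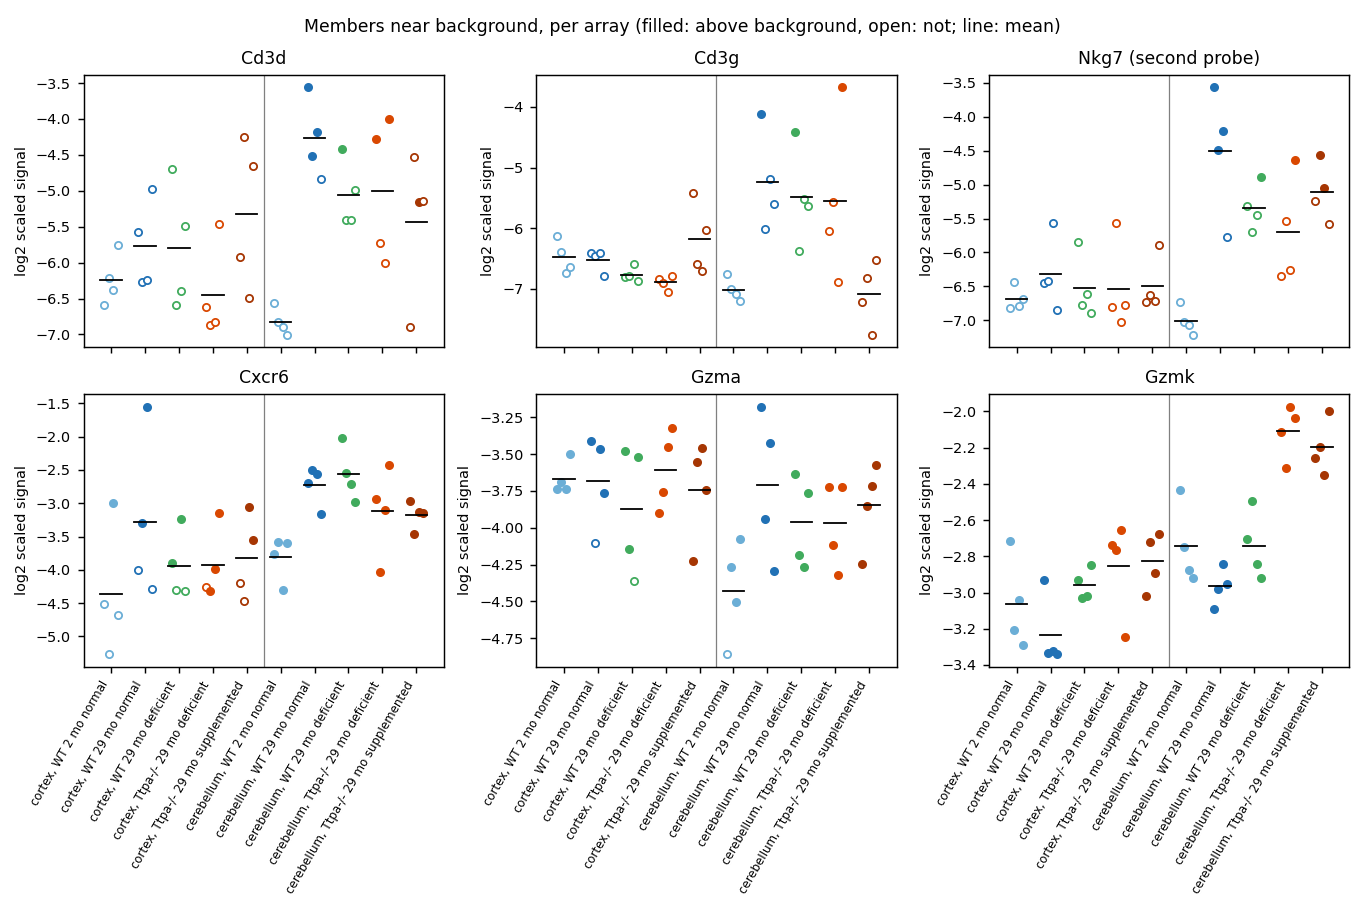
Log2 scaled signal of 6 member probes on each of the 40 arrays, by group (filled points are above background, open points are not, lines are means of 4 arrays). In the cerebellum, right of the grey line, the 4 young arrays of Cd3d, Cd3g and the second Nkg7 probe lie below all 4 aged wild-type arrays on the normal diet, and Gzmk is highest in the Ttpa-/- groups.

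In the cortex none of the 5 members tested was called with age, where 2.09% of all probes were. Cd3d had log2 scaled signals of -6.60, -6.22, -6.39 and -5.76 at 2 months and -5.57, -6.27, -6.24 and -4.98 at 29 months, all below background. The groups overlapped. The first Cd4 and Nkg7 probes differed by -0.07 ± 0.23 and -0.10 ± 0.12, Cd3e by -0.18 ± 0.13, Gzma by -0.02 ± 0.23 and Gzmk by -0.17 ± 0.13 (SE, n = 4 and 4). Cxcr6 was above background on 1 young and 2 aged cortex arrays and was not tested.

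The change with age was also compared between the regions, as the change in the cortex minus that in the cerebellum. Both ages of the cortex shared a slide, whereas the young and the aged cerebellum lay on different slides. Slide and age therefore cannot be told apart in the cerebellum, nor in this difference. None of the 6 members tested was called, where 1.46% of all probes were. For Gzma the value was -0.74 ± 0.33 (SE), with an adjusted p of 0.356 by limma. Cd3d, Cd3g and the second Nkg7 probe were too dim for this test, with no array above background in the cortex at either age or in the young cerebellum.

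**Figure D3:**
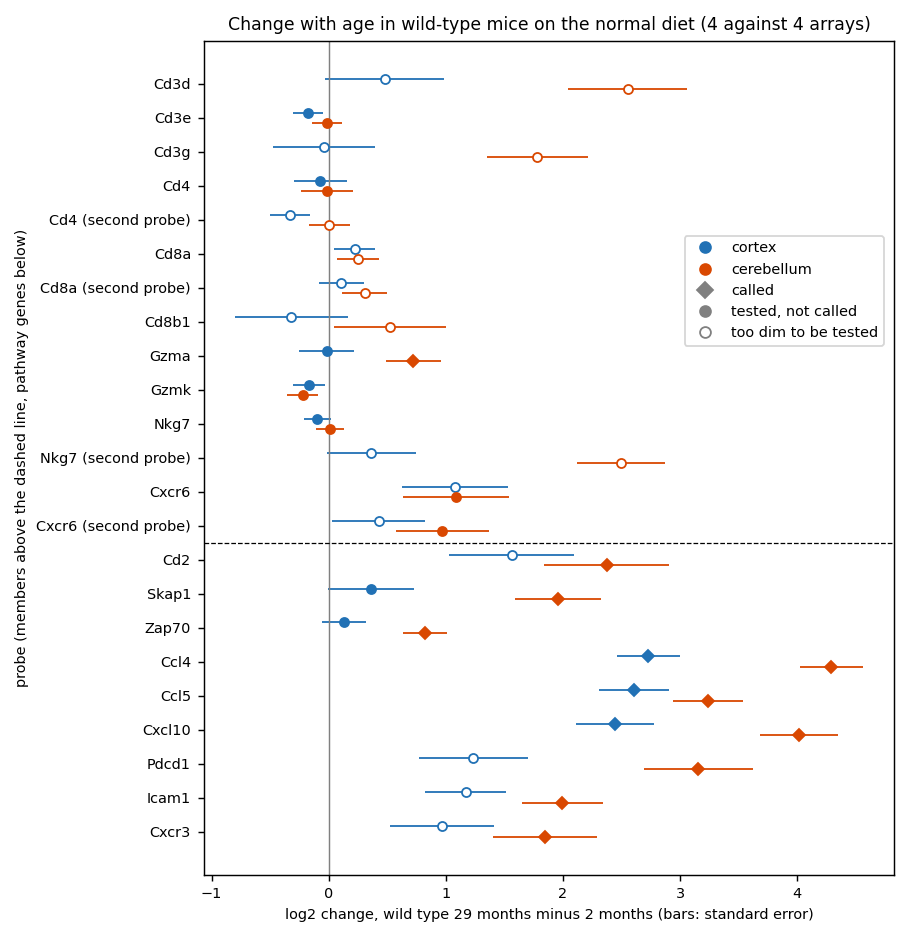
Log2 change with age (29 minus 2 months, wild type, normal diet) of the 14 member probes and of 9 pathway genes in the cortex (blue) and the cerebellum (orange), with standard errors. Diamonds are called, filled circles tested and not called, and open circles too dim to be tested; among the members only Gzma in the cerebellum is a diamond.

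The aged groups on other diets and of the other genotype had fewer cerebellum arrays above background for Cd3d and the second Nkg7 probe. Cd3d was above background on 1 of 4 arrays of aged deficient-diet wild-type mice, 2 of 4 of Ttpa-/- mice on the deficient diet and 1 of 4 of Ttpa-/- mice on the supplemented diet. Their means were -5.06 ± 0.47, -5.00 ± 1.01 and -5.43 ± 1.02 (SD, n = 4 each), against -4.27 ± 0.55 on the normal diet and -6.82 ± 0.19 in the young. In all, 15 of the 16 aged arrays were above the 4 young ones. In the Ttpa-/- cerebellum on the supplemented diet Cd3g was at -7.09 ± 0.53 with 0 of 4 arrays above background, while it was -5.49 ± 0.81 and -5.55 ± 1.36 on the deficient diet in wild-type and Ttpa-/- mice. No member was called between the diets in aged wild-type mice, with 6 tested in the cerebellum and 4 in the cortex, where 1.27% and 0.223% of all probes were called.

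Genes of other lists on T cells were called with age in both regions, but in the cortex none of T cell receptor signalling was. Of 25 genes of T cell receptor signalling, 12 were tested in the cerebellum, 5 were called up and none down, with a median change of 0.76 over the 12. Cd2 and Skap1, at least, entered the test through the aged group alone, which favours a rise in the count and the median. Up-calls made up 3.99% and down-calls 1.04% of all probes tested. Cd2, an adhesion receptor of T cells, was above background on 4 aged and 0 young arrays and at least 2.31-fold higher (means -3.56 and -5.93, adjusted p by limma 0.00271). The adaptor gene Skap1 was at least 1.61-fold higher (adjusted p by limma 0.000324), with 4 aged and 0 young arrays above background. For Cd2 and Skap1 the p values test the full difference, taken against young values below background, and not the "at least" fold. Zap70, the kinase that binds the CD3 chains, was above background on all 8 arrays and 1.77-fold higher (adjusted p by limma 0.00344). In the cortex 9 of the 25 were tested, and none was called in either direction. The difference between the regions in the change with age was called for 0 of 12 of these genes, beside 1.46% of all probes tested. It was called for 1 of 7 cytotoxic genes, Ccl4, whose change was lower in the cortex than in the cerebellum. Among 13 genes of residence and recruitment it was called for 1, Itga4, in the opposite direction.

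Of 22 cytotoxic and natural killer genes, 7 were tested in the cerebellum and 5 in the cortex, and the same 2, Ccl4 and Ccl5, were called up in each. Up-calls made up 1.59% of all probes tested in the cortex. Both are chemokines that T cells make, and other cells such as microglia make them too. Ccl4 was at least 13.9-fold higher in the aged cerebellum, where no young array was above background, and 6.63-fold higher in the aged cortex. Ccl5 was 9.45-fold higher in the cerebellum (log2 change 3.24 ± 0.30) and 6.10-fold higher in the cortex (2.61 ± 0.30).

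Of 18 genes of T cell residence and recruitment on the arrays, 13 were tested in the cerebellum, with 6 called up and 1 down, and 10 in the cortex, with 2 called up. Cxcl10, a chemokine that draws T cells, was 16.2-fold higher in the aged cerebellum (adjusted p by limma 9.44e-11) and 5.45-fold higher in the aged cortex (adjusted p by limma 9.04e-06). Pdcd1, which encodes the PD-1 receptor of activated T cells, was at least 2.85-fold higher in the aged cerebellum (adjusted p by limma 1.01e-05). Its means were -3.27 at 29 months and -6.42 at 2 months. The endothelial adhesion gene Icam1 was at least 1.95-fold higher and Cxcr3, the receptor of CXCL10, at least 1.40-fold higher there, each with 4 aged and 0 young arrays above background. Cd2, Skap1, Ccl4, Pdcd1, Icam1 and Cxcr3 passed the filter on dim probes in the cerebellum through the aged group alone, which favours calls up in the counts. The p value of Pdcd1 likewise tests its full difference and not the "at least" fold. Under normexp the fold changes of Skap1, Zap70, Icam1 and Cxcr3 fell under 1.5 and their calls were lost. The log2 changes under normexp were 2.44 for Cxcl10, 2.17 for Ccl4, 2.18 for Ccl5, 0.79 for Pdcd1 and 0.59 for Cd2 in the cerebellum, and 1.18 for Cxcl10, 1.23 for Ccl4 and 1.39 for Ccl5 in the cortex, all still called.

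Some markers of blood were called up with age in both regions. The summed signal of 8 red cell genes was 9.96 to 25.2 times the 75th percentile signal in the young cerebellum and 38.8 to 273 in the aged wild-type one, with 4 of 6 tested genes called up and Epb4.2 above background on no array. In the cortex it was 1.84 to 7.40 and 18.1 to 40.9, with 1 of 4 called up. The summed signal of 9 myeloid blood genes was 2.36 to 5.75 and 6.46 to 55.4 in the cerebellum, with 0 of 6 called, and 1.36 to 1.78 and 2.84 to 3.37 in the cortex, with 2 of 4 called. The summed signal of 9 B cell genes was 0.41 to 0.51 in the young and 0.52 to 1.57 in the aged cerebellum, with Igj called up of 5 tested. Among the 4 aged wild-type cerebellum arrays, the one highest in Cd3d, Cd3g, the second Nkg7 probe and Gzma was also the highest in the myeloid and the B cell sum, and second in the red cell sum. The part of blood in these changes was not tested. Without that array Gzma was not called, with a change of 0.54, and the bound for the second Nkg7 probe was lost.

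Of 10 microglia markers, 8 were called up with age in the cerebellum and 3 in the cortex, and 3 of 8 choroid plexus markers tested were called down in the cerebellum. Their summed signals were 90.0 to 98.8 and 121 to 136 for microglia, and 8.99 to 254 and 6.31 to 7.27 for choroid plexus, at 2 and 29 months. Of 6 cerebral cortex markers tested in the cerebellum, Lhx2 and Lamp5 were called up. Their part in the members' changes was not tested.

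Between genotypes, Gzmk, which encodes granzyme K, was called in the cerebellum. Its log2 scaled signals were -2.12, -2.31, -1.97 and -2.04 in Ttpa-/- mice on the deficient diet and -2.26, -2.19, -2.35 and -1.995 on the supplemented diet. They were -3.09, -2.98, -2.84 and -2.95 in aged normal-diet wild-type mice, -2.71, -2.49, -2.84 and -2.92 on the deficient diet, and -2.43, -2.75, -2.88 and -2.92 in the young. All 8 Ttpa-/- arrays were above all 12 wild-type arrays, and all 40 arrays of the series were above background for this probe. Over all probes, 20.6% had every deficient-diet Ttpa-/- array above every aged normal-diet wild-type array of the cerebellum. The share was 5.89% for the supplemented diet against the same wild-type mice, and 4.99% between genotypes on the deficient diet. The share for 8 against 12 arrays was not computed.

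Against aged normal-diet wild-type mice, Gzmk was called up in the cerebellum of deficient-diet Ttpa-/- mice, by 0.86 ± 0.13 (SE, n = 4 and 4; 1.81-fold, adjusted p by limma 6.77e-05). It was called up on the supplemented diet as well, by 0.77 ± 0.13 (1.70-fold, adjusted p by limma 0.00031). On the deficient diet it was 0.63 ± 0.13 higher in Ttpa-/- than in wild-type mice (1.55-fold, adjusted p by limma 0.00196). The diets differed by -0.09 ± 0.13 within the Ttpa-/- cerebellum, supplemented minus deficient. Under normexp these 3 differences were 0.53, 0.44 and 0.41, all under the fold threshold, with adjusted p values of 0.000185 to 0.00281 by limma. Without array 4 of the deficient-diet wild-type mice, the difference on that diet was 0.57 and under the threshold too. In the cortex the Ttpa-/- mice on the deficient diet had 0.38 ± 0.13 more than aged normal-diet wild-type mice, which was 1.30-fold with an adjusted p of 0.0426 by limma and was under the fold threshold. Both Ttpa-/- groups of the cerebellum shared a slide, on which no wild-type cerebellum group lay, so slide and genotype cannot be told apart.

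The first Cd4 probe was called in 1 comparison of Ttpa-/- with wild-type mice in each region. Its log2 scaled signals in the cortex were 3.41, 3.13, 2.90 and 2.68 in Ttpa-/- mice on the deficient diet and 2.35, 2.38, 1.89 and 2.64 in aged normal-diet wild-type mice. All 4 of the former were above all 4 of the latter, as in 6.62% of all probes, by 0.72 ± 0.23 (SE; 1.64-fold, adjusted p by limma 0.0242). On the supplemented diet the Ttpa-/- cortex gave 2.73, 2.68, 2.06 and 2.23, which overlapped the wild-type arrays. In the wild-type cortex on the deficient diet the signals were 2.94, 2.60, 1.84 and 2.80, and the difference between genotypes on that diet was 0.48 ± 0.23 (SE, n = 4 and 4), with an adjusted p of 0.148 by limma, and was not called. The call against the normal diet in the cortex was lost under median scaling (difference 0.79, adjusted p by limma 0.102) and in a fit of the 2 groups alone (adjusted p by limma 0.0655). It was also lost without array 3 of the wild-type mice or array 1 or 2 of the Ttpa-/- mice, where the difference was 0.57 to 0.69.

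In the cerebellum the first Cd4 probe gave 2.73, 2.87, 2.62 and 2.36 in Ttpa-/- mice on the deficient diet and 1.67, 1.57, 1.68 and 1.89 in wild-type mice on that diet. The groups did not overlap, and the difference of 0.94 ± 0.23 (SE; 1.92-fold) was called, with an adjusted p of 0.00575 by limma. Over all probes, 4.99% had all Ttpa-/- arrays above all wild-type arrays between these groups. Against normal-diet wild-type mice the Ttpa-/- mice were 0.62 ± 0.23 and 0.64 ± 0.23 higher on the deficient and the supplemented diet, with adjusted p values of 0.0644 and 0.0516 by limma. The second Cd4 probe stayed below background in all wild-type groups. In the Ttpa-/- cerebellum on the supplemented diet it was above background on 3 of 4 arrays, at -4.72, -4.80, -5.20 and -4.75, and at least 1.13-fold higher than in normal-diet wild-type mice, at -5.69, -5.26, -5.21 and -5.45. On the deficient diet the Ttpa-/- cerebellum gave -4.80, -4.78, -4.91 and -4.94, with no array above background. The lowest level counted as above background averaged -5.09 in the former group and -4.74 in the latter.

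The first Nkg7 probe and Cd3e were higher in the same mice by less than 1.5-fold, under the threshold. Nkg7 was 0.47 ± 0.12 higher in the cortex of Ttpa-/- mice on the deficient diet than in aged normal-diet wild-type mice (adjusted p by limma 0.00544). In the cerebellum it was 0.43 ± 0.12 higher in the same comparison (adjusted p by limma 0.0144) and 0.52 ± 0.12 higher than in deficient-diet wild-type mice (adjusted p by limma 0.00335). Cd3e was 0.52 ± 0.13 higher in that last comparison (adjusted p by limma 0.00611; 1.44-fold). Under median scaling, which moved the median of all probes tested there from -0.01 to 0.17, Cd3e and Nkg7 were called too. Within the Ttpa-/- cortex Nkg7 was lower on the supplemented than on the deficient diet by 0.47 ± 0.12 (adjusted p by limma 0.00735). All 4 arrays of the former were below all 4 of the latter, as in 5.36% of all probes.

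**Figure D4:**
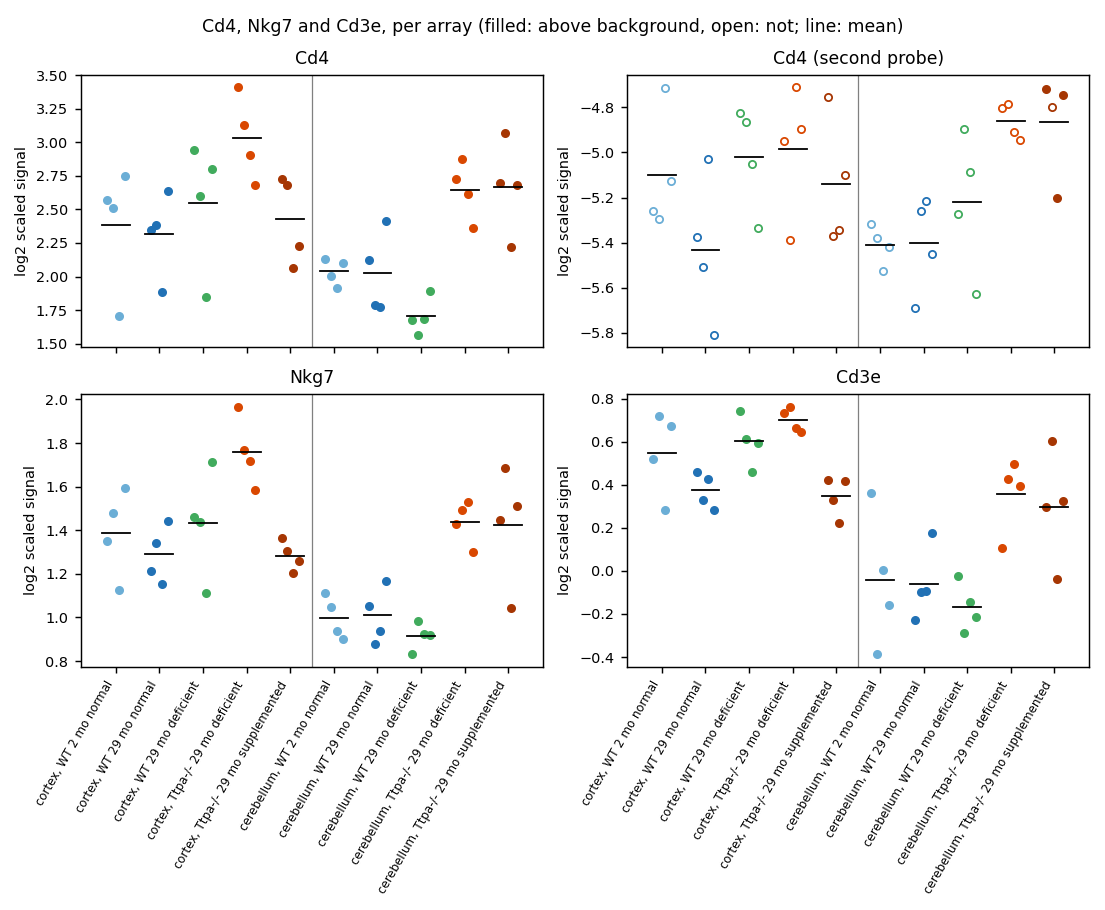
Log2 scaled signal of both Cd4 probes, the first Nkg7 probe and the Cd3e probe on each of the 40 arrays, by group (filled points are above background, open points are not, lines are means of 4 arrays). In the cerebellum, right of the grey line, all 4 Ttpa-/- arrays on the deficient diet are above all 4 wild-type arrays on that diet for the first Cd4 probe, Nkg7 and Cd3e. The same holds for 4.99% of all probes.

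Of the members tested, 1 of 5 was called against normal-diet wild-type mice in the Ttpa-/- cortex on the deficient diet, where 4.75% of all probes were called, and 0 of 5 on the supplemented diet, where 0.092% were. In the cerebellum 1 of 6 was called on the deficient diet, beside 4.46% of all probes, and 1 of 6 on the supplemented diet, beside 4.91%. Between genotypes on the deficient diet, 0 of 5 were called in the cortex and 2 of 6 in the cerebellum, beside 3.07% and 4.94%. The comparisons with the wild type on the normal diet share those arrays. Between the diets within Ttpa-/- mice, 0 of 5 were called in the cortex and 0 of 6 in the cerebellum, beside 3.31% and 0.343%. In that cortex comparison the arrays of the same replicate number deviated together. With the number as a block Cd4 was called down, by 0.61 on the log2 scale (adjusted p by limma 0.0219, and 0.0685 without the block). The block was fitted in common over all 40 arrays of both regions, and not as a pairing within these cortex groups. Gzma and Cxcr6 were called in none of these comparisons.

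Between the regions at 2 months, 2 of 6 members tested were called and were higher in the cortex, where 38.4% of all probes were called either way. Cd3e was 0.59 ± 0.13 higher (1.51-fold, adjusted p by limma 0.000142), with log2 scaled signals of 0.52, 0.72, 0.28 and 0.67 in the cortex and 0.36, -0.39, 0.00 and -0.16 in the cerebellum, which overlapped. Gzma was 0.76 ± 0.23 higher (1.70-fold, adjusted p by limma 0.0055). Its cortex arrays, at -3.74, -3.69, -3.74 and -3.50, were all above the young cerebellum, as in 22.7% of all probes. The Cd3e call was lost without array 2 or 4 of either region, where the difference was 0.48 to 0.56, and under quantile normalization, where it was 0.57. Under normexp neither was called, with differences of 0.53 for Cd3e and 0.49 for Gzma. At 29 months 0 of 6 were called, where 33.6% of all probes were. Cd3d was above background on 3 aged wild-type cerebellum arrays and on none of the cortex, and was at least 1.03-fold higher in the cerebellum.

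The first probes of Cd4 and Nkg7 ran together over the 40 arrays (Pearson r = 0.93, and 0.85 after the group means were subtracted). Cd3e ran with Nkg7 at r = 0.83 and with Cd4 at 0.74. Each first probe was unlike the second probe of its own gene, with r = 0.29 for Cd4 and -0.28 for Nkg7, whereas the overlapping Cxcr6 probes gave 0.84. Whether the first Cd4 and Nkg7 probes and the Cd3e probe measure these genes' transcripts in brain RNA was not tested. Cd3d was most like the second Nkg7 probe (r = 0.66) and Cd3g (r = 0.62) among the members. These values describe 40 arrays that share slides and scaling, and those of dim probes include values below background.

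The genes most like each member by the same measure were sought among 15689 genes that some group measured above background on each of its arrays. Nearest to the first Cd4 probe were Msi1 (r = 0.97, and 0.96 within groups), Klhdc7a and Gm10035, and nearest to the first Nkg7 probe Cdhr2 (r = 0.97, and 0.91 within groups), Igf1 and Iqcd. Nearest to Cd3e were Acox3 (r = 0.97, and 0.90 within groups), Kdr and Cyp17a1. Gzmk was most like Ffar3 (r = 0.85, and 0.48 within groups), Rpl26-ps2 and Gm2824. For Gzma the nearest were Unc93b1 (r = 0.65, and 0.50 without the 2 arrays farthest from the median), Cd86 and Tgfbr1, and for Cxcr6 they were Zfp160 (r = 0.83), Clk1 and Cd300ld.

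Promoters were at hand for 8 of the 10 members, all but Cd4 and Cd8b1, as 300 bases from 250 before to 50 after the start of the gene in RefSeq (GRCm38.p6). Those of Cd3d and Nkg7 are shown, as genes with a dim probe above background on 3 aged and no young wild-type cerebellum arrays. Capitals mark the RUNX core TGTGGT and the ETS core AGGAAG on either strand, motifs of factor families that act in T cells. Of all 32841 promoters, 16.8% held the first and 35.4% the second. The RUNX core was in 3 of the 8 member promoters (Nkg7, Cxcr6 and Gzma) and the ETS core in 3 (Cd3d, Cd3e and Nkg7). A match is a description of the letters and not of binding.
Cd3d (chr9:44981536-44981835, plus strand): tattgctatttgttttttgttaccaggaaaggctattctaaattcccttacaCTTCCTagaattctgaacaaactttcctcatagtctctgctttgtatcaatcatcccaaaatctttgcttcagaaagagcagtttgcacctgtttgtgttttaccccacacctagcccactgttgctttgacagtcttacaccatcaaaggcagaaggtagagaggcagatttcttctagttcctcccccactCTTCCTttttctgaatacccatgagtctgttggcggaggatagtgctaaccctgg
Nkg7 (chr7:43436888-43437187, plus strand): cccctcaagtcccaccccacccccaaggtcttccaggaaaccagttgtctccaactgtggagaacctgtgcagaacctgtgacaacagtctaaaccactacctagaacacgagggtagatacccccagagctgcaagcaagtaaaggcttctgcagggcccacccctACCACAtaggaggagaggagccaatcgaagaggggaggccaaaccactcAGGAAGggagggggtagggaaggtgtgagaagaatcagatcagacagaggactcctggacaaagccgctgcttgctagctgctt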

How the data were processed

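The deposited files hold the scanner output of Agilent 1-colour arrays, with background-corrected spot intensity and detection flags made by the authors with Feature Extraction (10.1.1.1 per the labels, 10.7.3.1 per the file headers), on mm9. The authors' deposited value table holds log2 values, which matched the log2 signal minus each array's 75th percentile, centred per probe, with a median absolute difference of 0.000915, and it was used as an alternative.

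From the spot intensities of 59305 gene spots an array, flagged outliers (95 to 148 an array) were left out, spots of a probe were averaged and 55589 probes were kept. No gene spot was saturated. The 75th percentile of signal was 365 to 925. Depth does not apply to arrays, whose number limits the precision.

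Groups were compared with limma 3.58.1 in R 4.3.3, with 1 coefficient for each of 10 groups over 40 arrays and no block. A probe was tested where either group compared had it well above background on each of 4 arrays, and Benjamini-Hochberg adjustment ran over all such probes. The "at least" folds set the brighter group's mean against, for each array of the dimmer group, the higher of the probe's own value and the lowest value above background. The script was tested on simulated data.

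In the comparison of diets in the Ttpa-/- cortex, the deviations of same-numbered arrays correlated at 0.167 to 0.347, with a mean of 0.249. The mean was 0.322 between the diets in the Ttpa-/- cerebellum (0.032 to 0.599) and 0.236 with age in the cortex (0.032 to 0.448). It was -0.137 to -0.084 in the comparisons of the Ttpa-/- with the wild-type cerebellum. The labels do not say whether replicates were processed separately beyond being 4 mice. The members and all gene lists were chosen with earlier results of these data known. The genes named were the members, and in each list the called genes with the largest changes, at most 4, and for each member the 3 genes of highest correlation over the arrays. Alternatives were other scalings, background corrections, filters, blocks, weights and tests, and each array left out in turn. Some items are not reported here.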

Additional observations from a re-analysis of the deposited data

Results flagged for a closer look

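In 3 of 82 pairs of a probe and a group, with at least 1 array above background, 1 array lay apart from the other 3 by more than Dixon's 95% critical value for 4 arrays. Chance gives about 1 in 20 such groups. The second Cd4 probe was at -5.20 on array 3 of the Ttpa-/- cerebellum on the supplemented diet, against -4.80 to -4.72 on the others. Gzmk was at -2.93 on array 1 of the aged wild-type cortex on the normal diet, against -3.34 to -3.32. The second Cxcr6 probe was at -5.57 on array 2 of the aged wild-type cortex on the deficient diet, against -4.19 to -4.03. The change of Ccl4 with age differed between the regions by the test of the difference itself, at -1.56 ± 0.38 (SE) for cortex minus cerebellum on the log2 scale, with an adjusted p of 0.0242 by limma. No young cerebellum array was above background for Ccl4, so its change there is taken against background. The young and the aged cerebellum also lay on different slides, and both ages of the cortex on the same slide. Under normexp the changes were 1.23 in the cortex and 2.17 in the cerebellum, and the difference was not tested there.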

How the results depend on the processing

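The counts of members called, of 5 or 6 tested, were recomputed for 15 comparisons. They were the same under the authors' value table, under any spot above background and under any probe of a gene (the last and the filter of 3 of 4 arrays were added after seeing the data). With age in the cerebellum the count of 1 became 0 under median scaling, quantile normalization and normexp, and 2 with no filter, array weights, unadjusted p or the filter of 3 of 4 arrays. In the Ttpa-/- cortex on the deficient diet against wild type on the normal diet the count of 1 became 0 under median scaling, with the groups compared alone and by the methods' t-test after Benjamini-Hochberg, and 3 without a fold threshold. In the cerebellum the same comparison had 2 under quantile normalization, the replicate block, array weights, unadjusted p and the methods' t-test unadjusted, 0 under normexp and 3 without a fold threshold. On the supplemented diet it had 2 under quantile normalization, no filter, the replicate block, array weights, unadjusted p, the methods' t-test unadjusted, no fold threshold and 1 probe a gene. In all those with the block, Cd4 was added. Between genotypes on the deficient diet in the cerebellum, 2 became 4 under median scaling and without a fold threshold, and 1 under normexp, with the groups compared alone and by the methods' t-test after Benjamini-Hochberg. Between diets in the Ttpa-/- cortex, 0 became 1 under quantile normalization, normexp, the replicate block, array weights, unadjusted p, the methods' t-test unadjusted and no fold threshold. Between regions at 2 months, 2 became 1 under quantile normalization, 0 under normexp and 4 without a fold threshold. At 29 months 0 became 2 with no filter or no fold threshold, and 1 with array weights or the filter of 3 of 4 arrays. For the difference of the regions with age, 0 became 1 with unadjusted p. The other 6 comparisons kept their count under each alternative. A count that stayed the same can hold a different member. With age in the cerebellum and the groups compared alone, Gzma was lost and Cxcr6 was called. For the supplemented diet in the cerebellum, Gzmk fell under the fold threshold with normexp although the count did not change. The cause of these changes was not tested, except that the fold and p settings change the threshold itself.

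With 1 array left out, the count was 0 to 2 for age in the cerebellum, 0 to 1 for the Ttpa-/- cortex on the deficient diet, 1 to 2 for each Ttpa-/- cerebellum group, 1 to 3 between genotypes in the cerebellum on the deficient diet, 0 to 1 between diets in the Ttpa-/- cortex, 1 to 2 between regions at 2 months and 0 to 1 at 29 months. Array 4 of the aged wild-type cerebellum on the normal diet, when left out, added Cd3d with age and Cd4 in both Ttpa-/- groups. Cd4 was also added without array 3 of the Ttpa-/- cerebellum on the supplemented diet, and was called down between diets without array 4 of the Ttpa-/- cortex on the deficient diet. Between regions at 29 months Cxcr6 was added without array 3 of the cortex. The block of replicate numbers changed the count in no comparison but the 3 named. A slide block could not be fitted, since each group lay on 1 slide. Median scaling moved the median change of all probes tested by over 0.1 in 3 comparisons, to -0.19 for the diets in the wild-type cerebellum, 0.17 between genotypes there and -0.09 between diets in the Ttpa-/- cortex. Values of probes below background limit Cd3d, Cd3g, both Cd8a probes, Cd8b1 and the second probes of Cd4 and Nkg7.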
